A study of Mus musculus with 16 samples.

Results

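Accessible chromatin was examined at 10 genes of the cytotoxic lineage program in developing mouse thymocytes: *Eomes*, *Tbx21*, *Ifng*, *Prf1*, *Gzmb*, *Nkg7*, *Ccl5*, *Crtam*, *Itgae* and *Klrd1*. A peak was a member when it lay wholly within the gene body and the 30 kb on either side of it (mm10, GENCODE M21), whatever its height or stage. This gave 421 of the 476734 peaks in the 4 stage lists, which merged into 154 of 185978 regions where peaks of different stages shared at least 1 bp. The cells were sorted from thymi of wild type C57BL/6J mice 9 weeks old, and the same 4 mice gave all 4 stages. All gates excluded a lineage cocktail that included TER119, B220, Mac1, Gr1, CD11c, NK1.1 and the gamma delta T cell receptor. DN cells were CD4-CD8-CD3-, DP cells CD4+CD8+, SP4 cells CD4+CD8-CD3+ and SP8 cells CD4-CD8+CD3+. Reads of the 16 libraries were reduced to the median depth of all libraries, and the mice of each stage were pooled before peak calling. The pooled depth still differed between stages. Each stage was 1 list without replicates, so no test between stages could be made. In pooled cells, fewer open cells and less opening per cell cannot be told apart, and a region without a peak may hold signal under the threshold of 5% FDR.

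Thymocytes pass from the DN to the DP stage and then commit to the SP4 (helper) or the SP8 (cytotoxic) lineage. Runx3 directs the cytotoxic choice and ThPOK, encoded by *Zbtb7b*, the helper choice. Eomes and T-bet (encoded by *Tbx21*) are T-box factors that, in mature CD8 T cells and natural killer cells, drive genes for killing and for interferon gamma. Killing itself uses perforin, which opens the target membrane, and granzymes, which enter through it. Most of this program is switched on only after mature cells meet antigen outside the thymus, while chromatin can be open at a gene before it is transcribed.

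The sequences under the regions on which the comparisons turned are shown here, 5′ to 3′ on the strand of the gene. Capitals mark every match, on either strand, to 8 short letter strings named for the factor families that recognise them. RUNX factors were searched as TGTGGT and, as a second spelling, TGCGGT. T-box factors such as Eomes and T-bet were searched as TCACAC, the activation-induced AP-1 as TGANTCA, and the ETS family as GGAAGT. The spellings of the E-box, used by E proteins in early thymocytes, were CAGCTG and, alternatively, CAGGTG. TCF/LEF factors were searched as CTTTGA. Factors of the GATA family such as Gata3 were searched as AGATAA, and the cytokine-driven STAT factors as TTCNNNGAA. The *Gzmb*, *Nkg7* and *Ifng* sequences are RefSeq promoters of GRCm38.p6, from 250 bases before to 50 after the RefSeq start, at chr14:56262285-56262584 (minus strand), chr7:43436888-43437187 (plus strand) and chr10:118440796-118441095 (plus strand). RefSeq promoters were matched for 6 of the 10 genes. The *Itgae* sequence holds the 151 bases around the SP8 summit at the start, chr11:73090480-73090630 (plus strand). Those 4 starts had a peak over them at DN and SP8 and at neither other stage.
Gzmb promoter: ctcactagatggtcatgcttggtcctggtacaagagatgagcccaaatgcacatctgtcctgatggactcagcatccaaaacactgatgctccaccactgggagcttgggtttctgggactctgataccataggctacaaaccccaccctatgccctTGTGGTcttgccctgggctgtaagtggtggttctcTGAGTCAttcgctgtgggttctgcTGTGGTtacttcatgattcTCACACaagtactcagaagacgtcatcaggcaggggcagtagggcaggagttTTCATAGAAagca
Nkg7 promoter: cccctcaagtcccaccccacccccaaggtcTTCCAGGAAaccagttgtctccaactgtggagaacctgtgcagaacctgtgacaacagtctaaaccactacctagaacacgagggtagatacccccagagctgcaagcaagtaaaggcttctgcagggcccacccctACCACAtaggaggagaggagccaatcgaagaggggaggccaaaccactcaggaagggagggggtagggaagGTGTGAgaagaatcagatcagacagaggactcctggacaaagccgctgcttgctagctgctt
Ifng promoter: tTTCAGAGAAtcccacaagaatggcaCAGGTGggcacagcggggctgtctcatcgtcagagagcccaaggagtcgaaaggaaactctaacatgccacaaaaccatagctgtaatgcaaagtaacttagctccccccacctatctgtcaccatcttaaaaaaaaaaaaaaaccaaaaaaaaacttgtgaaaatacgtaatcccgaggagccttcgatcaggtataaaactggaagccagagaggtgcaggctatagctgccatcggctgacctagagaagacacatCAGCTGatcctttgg
Itgae start: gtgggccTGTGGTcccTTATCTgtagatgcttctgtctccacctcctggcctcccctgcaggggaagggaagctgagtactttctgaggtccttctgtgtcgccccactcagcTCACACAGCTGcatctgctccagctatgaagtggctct

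The *Gzmb* promoter held 2 RUNX strings, 1 AP-1 string, 1 T-box string and 1 STAT string. RUNX and T-box strings also stood together in the *Nkg7* promoter and in the *Itgae* window. The RefSeq starts lie 74 bp (*Gzmb*) and 65 bp (*Nkg7*) from the GENCODE starts, and a window of 151 bp on the *Nkg7* summit held the RUNX string without the T-box string. In the *Itgae* window the T-box letters overlapped an E-box string. The *Ifng* promoter held neither a RUNX nor a T-box string. Of 32851 RefSeq promoters of the same length, 22.4% held a RUNX string, 14.5% a T-box string and 3.53% both. Of 185978 windows of 151 bp centred on the summits of all regions, 2.79% held both. A match describes the letters and is no measure of binding.

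Outside the starts, 3 of the regions whose peaks were highest at SP8 are shown. They are windows of 151 bp on the SP8 summits of the regions centred 17.97 kb downstream of the *Ifng* start (chr10:118458873-118459023, plus strand), inside *Crtam* (chr9:40994204-40994354, minus strand) and 16.15 kb upstream of *Klrd1* (chr6:129575515-129575665, plus strand).
Ifng +18 kb: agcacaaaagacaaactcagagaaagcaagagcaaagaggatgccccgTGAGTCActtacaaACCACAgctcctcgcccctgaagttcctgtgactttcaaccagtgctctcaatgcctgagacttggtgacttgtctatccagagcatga
Crtam +10 kb: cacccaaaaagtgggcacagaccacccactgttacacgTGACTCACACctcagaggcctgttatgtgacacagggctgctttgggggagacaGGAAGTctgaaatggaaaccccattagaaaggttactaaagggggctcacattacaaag
Klrd1 -16 kb: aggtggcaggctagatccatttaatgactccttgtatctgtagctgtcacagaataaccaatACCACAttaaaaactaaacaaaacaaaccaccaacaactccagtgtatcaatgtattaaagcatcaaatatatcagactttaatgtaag

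An AP-1 and a RUNX string lay close together in the *Ifng* window. The AP-1 and T-box letters of the *Crtam* window overlapped, and an ETS string followed. The *Klrd1* window held a single RUNX string. Not every region highest at SP8 held a string. The window on the summit 13.95 kb upstream of *Gzmb*, with a fold enrichment of 16.8 at SP8, held none of the 8. Over the 154 regions, 22.7% of 100 bp windows on the highest summit held a RUNX string, against 17.6% of all regions, and 7.79% held an AP-1 string, against 3.88%. For T-box the shares were 8.44% and 8.25%, and for ETS 14.3% and 14.9%. E-box strings stood in 24.0% and 24.4%, TCF/LEF strings in 5.19% and 7.64%, GATA strings in 2.60% and 3.37%, and STAT strings in 3.25% and 2.17%. Per kb of whole regions, TCF/LEF strings numbered 0.77 against 0.80 and GATA strings 0.39 against 0.40, so these differences depended on the window. AP-1 strings numbered 0.50 against 0.34 per kb, and E-box strings 1.79 against 2.20. The AP-1 share rested on 12 of the 154 regions.

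The 10 genes had more peaks at DN and at the SP stages than at DP. The lists held 131 (DN), 74 (DP), 103 (SP4) and 113 (SP8) member peaks. The ratio of SP8 to DP peaks was 1.53 at the 10 genes, while the whole lists had a ratio of 0.975. For DN to DP the ratios were 1.77 and 1.40, for SP4 to DP 1.39 and 1.07, and for SP8 to SP4 1.10 and 0.907. SP8 had more peaks than DP at 9 of the 10 genes, with *Prf1* the exception, and DN had more than DP at 9, with *Crtam* equal. More regions at DN than at DP were common among genes at large. Counted by merged regions, 9 of the 10 genes had more at DN, as did 70.4% of all 20807 coding genes. The 10 windows are the items described here and are not replicates of a stage.

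**Figure D1:**
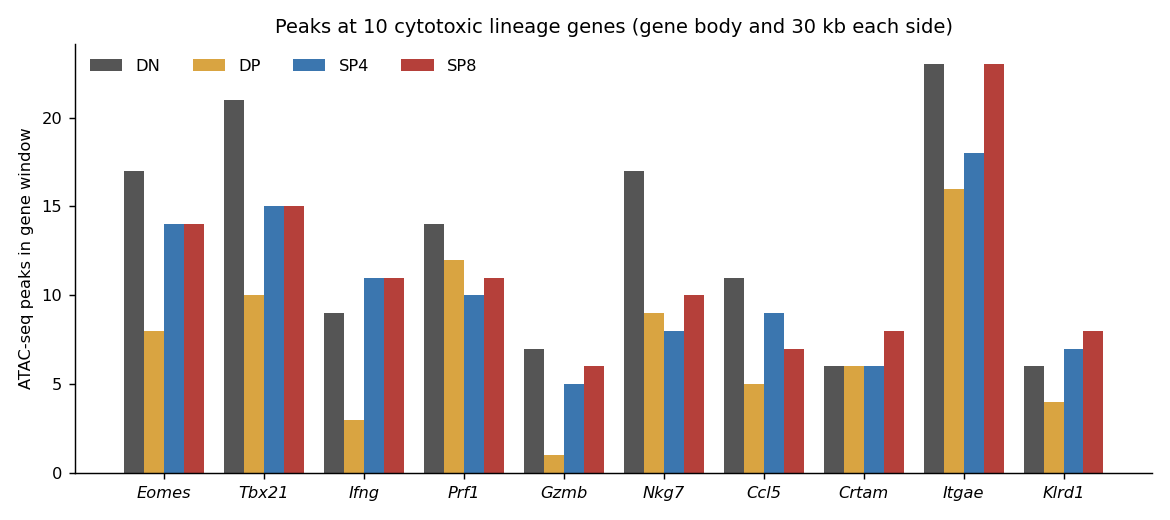
Number of ATAC-seq peaks (y axis) in the window of each of the 10 genes (x axis), with 1 bar per stage list and no error bars because the mice were pooled. The DP bar is below the SP8 bar at every gene except *Prf1*, and *Gzmb* has 1 DP peak.

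Counted by merged regions, 106 of 154 were called at SP8, or 68.8% (95% Wilson interval 61.1% to 75.6%), where 53% of all regions were. At DP, 68 regions or 44.2% (36.6% to 52.1%) were called, below the 53.9% of all regions. The DN share of 74.7% (115 regions) and the SP4 share of 59.1% (91 regions) lay near the 75.7% and 58.3% of all regions. All 4 stages shared 55 regions, 35.7% against 34.1%. The genes thus departed from the whole lists at SP8 and DP and stayed near them at DN and SP4. All regions here include those far from genes, and the stage shares over the windows of all coding genes are not given. Those windows held a mean of 14.0 regions, of which a mean of 5.44 were called at all 4 stages. The intervals cover counting error only, and regions of 1 locus are not independent, which makes them too narrow.

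Regions called at an SP stage and not at DP numbered 54, or 35.1% (28.0% to 42.9%) against 24.4% of all regions. Of these, 23 were also called at DN, 14.9% (10.2% to 21.4%) against 8.96%. Such regions were open in DN cells, without a peak in DP cells and with a peak again in SP cells. Regions called at SP8 and not SP4 numbered 24, or 15.6% (10.7% to 22.1%) against 9.24%. The opposite set, SP4 and not SP8, held 9 regions, or 5.84% (3.11% to 10.7%) against 14.6%. The lists differ in length, and with equal numbers of peaks per list the shares were 19.85% against 13.01% of all regions for SP8 and not SP4, and 5.15% against 13.1% for SP4 and not SP8.

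Of the regions called at a single stage, 15 were SP8-only, 9.74% against 4.21% of all regions. There were 32 DN-only regions (20.8% against 21.7%), 5 DP-only regions (3.25% against 5.17%) and 5 SP4-only regions (3.25% against 7.39%). Peaks at SP4 and SP8 and at neither earlier stage made up 11 regions, 7.14% against 3.82%, and peaks at DN and SP8 alone 6 regions, 3.90% against 2.11%. *Itgae*, which has the longest window of the 10, held 7 of the 15 SP8-only regions and 8 of the 24 called at SP8 and not SP4. Without *Itgae* the SP8-only share was 6.61%, the share at SP8 and not SP4 was 13.2% and the SP8 share was 69.4%. When a region was kept only if its nearest coding start was that of the member, the SP8-only share was 4.35%, near that of all regions.

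**Figure D2:**
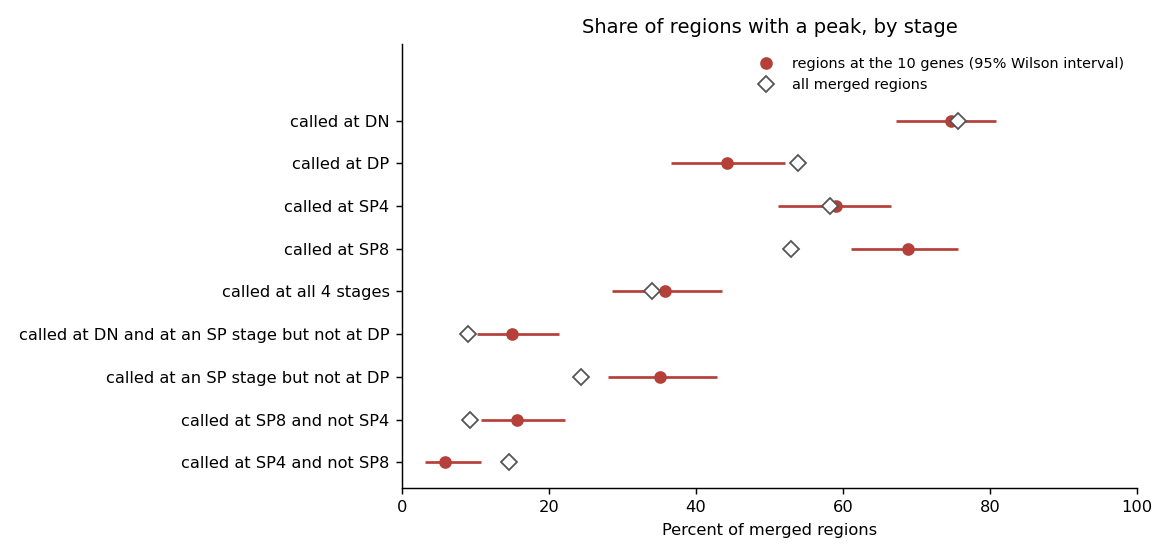
Percent of merged regions (x axis) called at each stage or set of stages (y axis), with filled points and 95% Wilson intervals for the 154 regions at the 10 genes and open diamonds for all 185978 regions. The SP8 point at 68.8% lies right of its diamond at 53%, and the DP point at 44.2% lies left of its diamond at 53.9%.

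Gene by gene, SP8 had more regions than SP4 at 8 of the 10 genes, as many at *Ifng* and *Ccl5*, and fewer at none. The median difference was 1 region and the highest was 5, at *Itgae*. Of all 20807 autosomal protein-coding genes, 23.2% had more regions at SP8 than at SP4, 36.0% had equal numbers and 40.8% had fewer, with a median of 0. Against DP, all 10 genes had more regions at SP8, with a median of 3.5, while 31.04% of all genes did. The largest excess over DP was 8 regions, at *Ifng*.

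**Figure D3:**
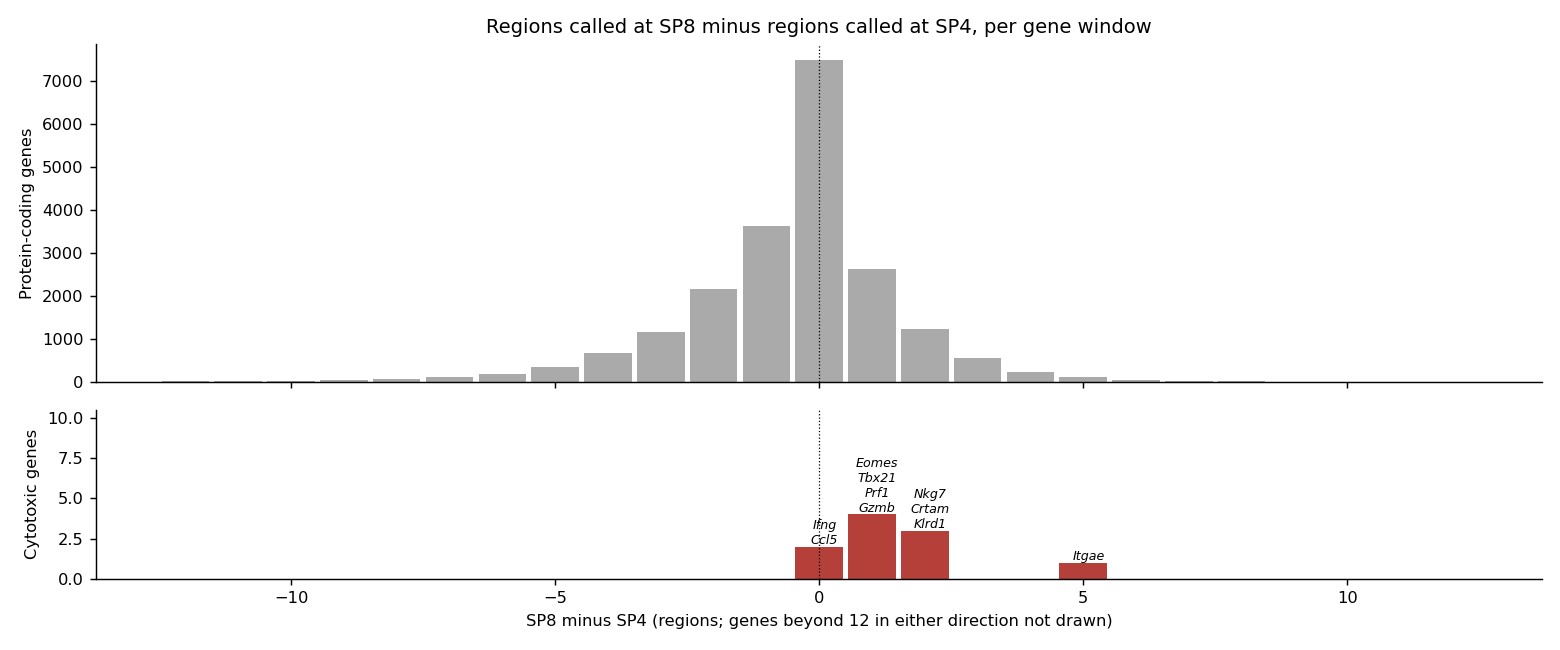
Regions called at SP8 minus regions called at SP4 in the window of each gene (x axis), with the number of protein-coding genes (upper y axis, differences beyond 12 not drawn) and of the 10 cytotoxic genes (lower y axis). The cytotoxic genes lie between 0 and 5, with none below 0, while 40.8% of all genes lie below 0.

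Counted by peaks directly over them, the starts of the 10 genes were called mostly at DN and SP8. A peak lay over an annotated start of 9 (DN), 4 (DP), 4 (SP4) and 9 (SP8) genes. Over all coding genes the shares were 62.6% (DN), 58.9% (DP), 57.1% (SP4) and 57.5% (SP8). When the 200 bp upstream of the start were counted too, the numbers were 10, 6, 7 and 10. The shares over all coding genes were not computed for that wider rule. The low counts at DP and SP4 thus rested in part on peak edges. The SP4 peak at *Prf1* ended 19 bp and the DP peak at *Klrd1* 20 bp upstream of the start. At *Gzmb*, *Nkg7* and *Itgae* the absence at DP and SP4 held with those 200 bp included. At *Ifng*, DP and SP4 had lower peaks that ended just upstream of the start.

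**Figure D4:**
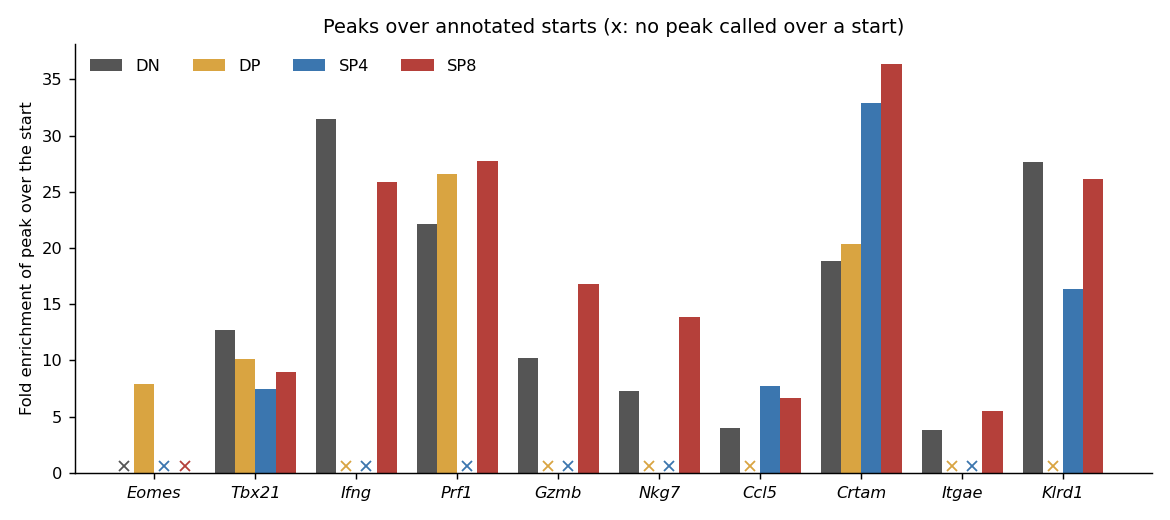
Fold enrichment over the local background (y axis) of the peak over an annotated start of each gene (x axis), by stage list, with a cross where no peak covered a start. *Gzmb*, *Nkg7*, *Ifng* and *Itgae* have bars at DN and SP8 only, and the tallest bar is *Crtam* at SP8, at 36.3.

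The *Eomes* window (chr9, gene at 118478212-118486132, plus strand) held 17 (DN), 8 (DP), 14 (SP4) and 14 (SP8) peaks. Eomes sustains the cytotoxic and memory programs of CD8 T cells. The highest *Eomes* peak of every stage lay 11.54 kb downstream of the start, past the gene (chr9:118489345-118490158), with a fold enrichment of 17.87 (DN), 13.27 (DP), 20.23 (SP4) and 14.98 (SP8). This region was called at all stages and stood highest at SP4. A region within the gene, 0.85 kb from the start, was also called at all stages, with 7.04 (DN), 7.92 (DP), 6.59 (SP4) and 7.97 (SP8). Only the DP peak reached over an annotated start there. Lower regions differed between the stages in more than one way. Those 26.64, 7.30 and 1.72 kb upstream had peaks at DN, SP4 and SP8 and none at DP, with fold enrichments between 3.77 and 8.95. A region 20.26 kb upstream was called at DN (5.93) and DP (4.95) and at neither SP stage. Downstream, a region at 10.97 kb was called at DN (3.53) and SP8 (3.15) alone, and one at 34.61 kb at SP8 alone (3.63).

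*Tbx21* (chr11, gene at 97098071-97115331, minus strand), the gene of T-bet, had 21 (DN), 10 (DP), 15 (SP4) and 15 (SP8) peaks. Its start was open at all stages, with a fold enrichment of 12.7 (DN), 10.1 (DP), 7.51 (SP4) and 8.94 (SP8). A region over an exon 13.41 kb into the gene (chr11:97101641-97102192) had 8.81 (DN), 11.9 (DP), 15.2 (SP4) and 19.5 (SP8). The start was thus highest at DN, while this exonic region was highest at SP8, which had its highest *Tbx21* peak there. The highest DN peak lay 11.83 kb upstream, with 13.1 (DN), 13.7 (DP), 17.1 (SP4) and 18.4 (SP8). The highest DP and SP4 peaks lay 0.71 kb upstream, where the stages had 10.6, 13.9, 19.9 and 15.8 in the same order. The DN excess in the number of *Tbx21* peaks came mainly from 6 DN-only regions. A region 36.39 kb downstream of the start was called at DN (8.10), DP (5.02) and SP8 (5.67) and not at SP4. *Tbx21* and *Crtam* were the only members with a peak over the start at all 4 stages.

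*Ifng* (chr10, gene at 118441046-118445892, plus strand) encodes interferon gamma, the cytokine that cytotoxic and type 1 helper cells share. It had 9 (DN), 3 (DP), 11 (SP4) and 11 (SP8) peaks. The peak over the start had a fold enrichment of 31.5 at DN, at percentile 99.6 of the DN list, and 25.8 at SP8, at percentile 97.0 of its own list. The nearest DP peak, at 9.12 (percentile 71.8), ended 103 bp upstream, and the nearest SP4 peak, at 10.7 (percentile 74.2), ended 92 bp upstream. The *Ifng* start was thus high at DN and SP8 and lower at DP and SP4, even where a peak was called.

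The *Ifng* locus has conserved noncoding elements, named by their distance from the start in kb, which are known enhancers and boundary elements in T cells. The region at CNS-22 (chr10:118418790-118419601) was called at all stages, with a fold enrichment of 23.2 (DN), 27.5 (DP), 27.8 (SP4) and 26.2 (SP8). Its values thus spanned a narrower range than those at the start. No peak was called at CNS-6 at any stage. Near CNS+18 to 20, no DP peak was called. There the region 17.97 kb downstream (shown above) had 10.2 at SP4 and 15.1 at SP8, and the one 19.33 kb downstream had 7.88 at SP4 and 3.47 at SP8. The one 20.69 kb downstream had 5.54 at DN, 3.83 at SP4 and 9.86 at SP8. Near CNS+29, a region 28.13 kb downstream was called at all stages, with 23.4 (DN), 11.9 (DP), 13.4 (SP4) and 24.4 (SP8). This distal region and the start both had DN and SP8 above DP and SP4. Low regions at 29.42 kb (4.20 at SP4) and 29.77 kb (2.83 at DN and 3.99 at SP4) lay beside it. A region 7.96 kb downstream was called at DN (5.54) and SP8 (5.89) alone. No other coding gene overlapped the *Ifng* window.

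*Prf1* (chr10, gene at 61297833-61304680, plus strand) encodes perforin and was the only member with fewer peaks at SP8 than at DP, with 14 (DN), 12 (DP), 10 (SP4) and 11 (SP8). The peak at the start had a fold enrichment of 22.2 at DN, 26.6 at DP and 27.7 at SP8, while the SP4 peak, at 17.1, ended 19 bp upstream. By percentile the DP peak (98.4) stood slightly above the SP8 peak (97.9). A region 8.42 kb downstream of the start, past the gene (chr10:61305902-61306601), had 20.96 (DN), 23.85 (DP), 31.23 (SP4) and 29.50 (SP8), the highest *Prf1* peaks of both SP stages. Perforin's start and this downstream region were therefore open from the DN stage on, DP included. Within 1.5 kb of the known enhancer at -1 kb, beside the start itself, a region 0.56 kb upstream was called at all stages, with 5.73 (DN), 5.41 (DP), 7.99 (SP4) and 4.98 (SP8). No region lay that near the -15 kb enhancer. A region 19.82 kb downstream was DN-only (6.62), and one 30.44 kb downstream, inside the neighbour *Pald1*, was SP8-only (7.95).

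*Gzmb* (chr14, gene at 56258838-56262260, minus strand) encodes granzyme B, the protease that starts apoptosis in target cells. Its window held 7 (DN), 1 (DP), 5 (SP4) and 6 (SP8) peaks. The start had a peak of fold enrichment 10.2 at DN (percentile 76.2) and 16.8 at SP8 (percentile 87.2). The nearest peak to the start lay 25658 bp upstream at DP and 13667 bp upstream at SP4. Among the SP stages, the *Gzmb* start was thus called at SP8 and not at SP4. Further upstream both SP stages had peaks. The region 13.95 kb upstream (chr14:56275927-56276501) had 6.43 at DN, 12.8 at SP4 and 16.8 at SP8. The region 22.29 kb upstream (chr14:56284239-56284861) had 9.87 at DN, 13.2 at SP4 and 12.4 at SP8, the highest *Gzmb* peak at SP4. Neither had a DP peak. The only DP peak, 25.67 kb upstream, stood at 3.74, with 9.24 at DN, 5.47 at SP4 and 7.22 at SP8 in the same region. *Gzmc*, another granzyme gene, overlapped the window.

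*Nkg7* (chr7, gene at 43437073-43438249, plus strand) encodes a membrane protein of cytotoxic granules. It had 17 (DN), 9 (DP), 8 (SP4) and 10 (SP8) peaks. Its start had a fold enrichment of 7.29 at DN and 13.9 at SP8 (percentile 81.4), and no peak at DP or SP4. The nearest DP peak ended 522 bp upstream and the nearest SP4 peak began 1775 bp downstream. A second region 0.58 kb upstream was called at DN (9.37), DP (3.98) and SP8 (5.96) and not at SP4. SP4 thus had no peak in either region. By contrast, the highest region of the window, 13.74 kb upstream (chr7:43423048-43423613), had 34.9 (DN), 34.2 (DP), 30.9 (SP4) and 32.6 (SP8). This region was among the highest peaks of every list, at percentile 99.1 or above. *Nkg7* lies in a gene-dense stretch, and 6 other coding genes overlapped its window. A DN-only region (5.77) lay 24.74 kb upstream, in *Siglecg*.

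*Ccl5* (chr11, gene at 83525778-83530518, minus strand) encodes a chemokine that memory CD8 T cells store and release. It had 11 (DN), 5 (DP), 9 (SP4) and 7 (SP8) peaks. The start had a fold enrichment of 4.01 at DN, 7.75 at SP4 and 6.65 at SP8, with the nearest DP peak 3800 bp upstream. *Ccl5* was the only member of the 10 whose peaks were fewer at SP8 than at SP4. The highest region of each stage lay 19.97 kb upstream (chr11:83550071-83550906), with 17.1 (DN), 10.99 (DP), 16.22 (SP4) and 16.05 (SP8). A region 4.69 kb upstream was called at DN (4.19) and SP8 (7.50), and a DN-only region (5.93) lay 14.51 kb upstream.

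**Figure D5:**
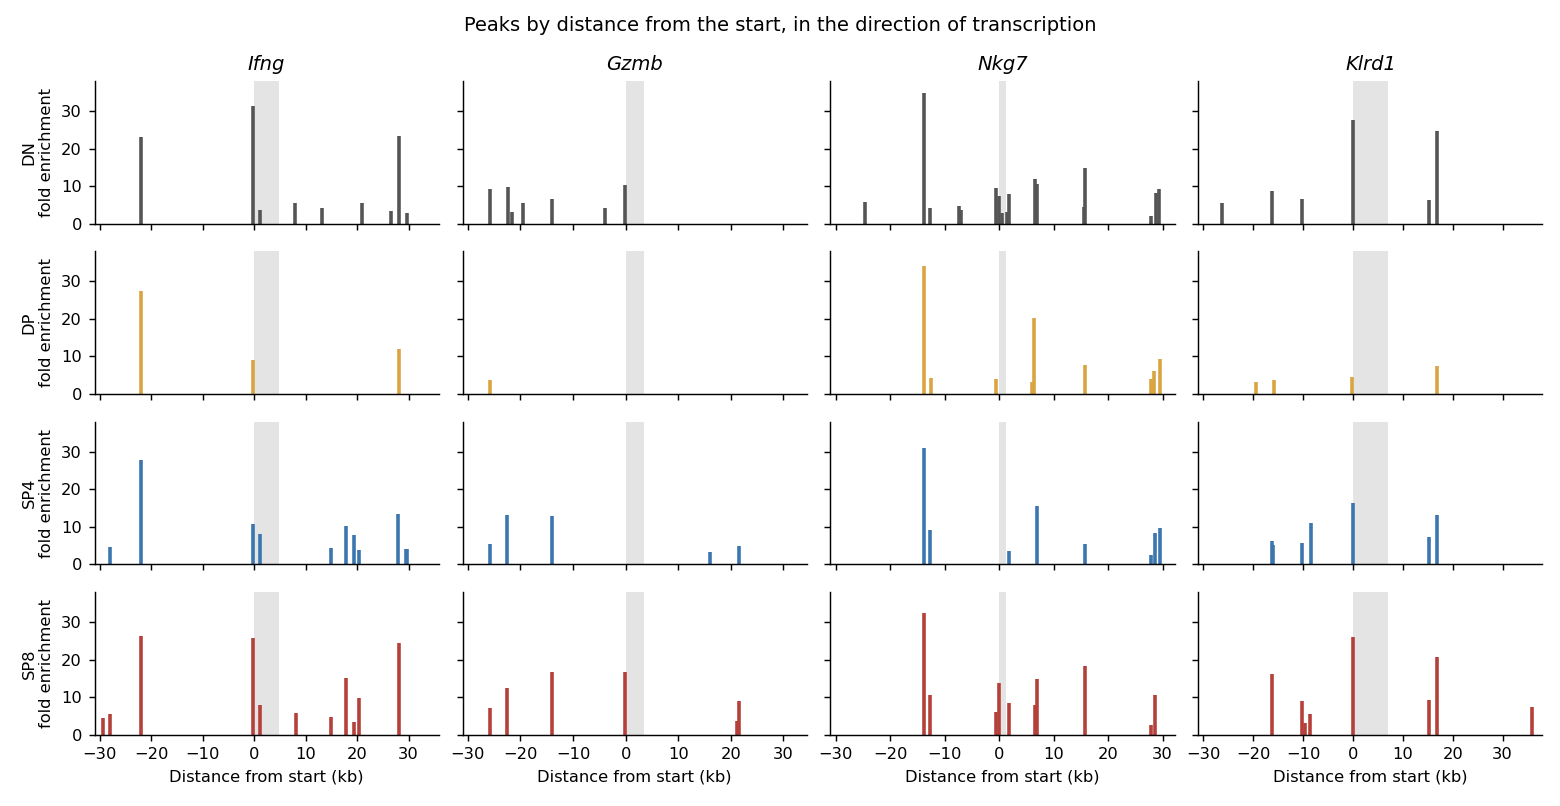
Peaks at *Ifng*, *Gzmb*, *Nkg7* and *Klrd1* (columns) at each stage (rows), drawn at the distance of the summit from the gene's start in kb (x axis, positive in the direction of transcription, gene body in grey) with the fold enrichment as height (y axis). At *Gzmb* the DP row holds 1 peak of 3.74, and at *Klrd1* the start peak is 27.6 (DN), 4.44 (DP), 16.4 (SP4) and 26.1 (SP8).

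*Crtam* (chr9, gene at 40969691-41004628, minus strand) encodes an adhesion receptor of activated CD8 T cells and natural killer cells. It had 6 peaks each at DN, DP and SP4, and 8 at SP8. Its start was open at all stages, with a fold enrichment of 18.9 (DN), 20.4 (DP), 32.9 (SP4) and 36.3 (SP8). The start peak of both SP stages was at or above percentile 99.4 of its list and the highest member peak of that list. A region 10.25 kb into the gene, overlapping an exon (chr9:40994081-40994680; part of it is shown above), had 3.98 at DP and 14.4 at SP8 (percentile 82.5) and no peak at DN or SP4. A region 9.10 kb upstream, in *Ubash3b*, had 3.79 at SP4 and 7.86 at SP8. At the *Crtam* start the lower values were thus those of DN and DP and the higher values those of both SP stages.

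*Itgae* (chr11, gene at 73090583-73147446, plus strand) encodes CD103, the integrin chain that holds CD8 T cells in epithelia. It had 23 (DN), 16 (DP), 18 (SP4) and 23 (SP8) peaks. The start peak was low, with a fold enrichment of 3.81 at DN (percentile 23.7) and 5.54 at SP8 (percentile 44.8). The nearest peak was 3612 bp downstream at DP and 3574 bp downstream at SP4. The higher *Itgae* regions were open at all stages. The region 6.12 kb upstream, in *Ncbp3*, had 23.4 (DN), 14.6 (DP), 23.2 (SP4) and 19.3 (SP8). An intronic region 17.91 kb into the gene (chr11:73108125-73108870) had 22.6 (DN), 27.5 (DP), 17.1 (SP4) and 23.4 (SP8). This intronic peak was the highest *Itgae* peak at SP8, while the highest at SP4 lay at the shared start of *Emc6* and *Tax1bp3* (25.1). Among the 7 SP8-only regions of *Itgae* the fold enrichment ran from 2.13 to 8.73, and the highest lay 12.90 kb upstream in *Ncbp3*. A region 46.19 kb into the gene was called at DN (6.57), DP (3.59) and SP4 (4.82) and not at SP8.

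*Klrd1* (chr6, gene at 129591782-129598775, plus strand) encodes CD94, the partner of NKG2 receptors on natural killer and CD8 T cells. It had 6 (DN), 4 (DP), 7 (SP4) and 8 (SP8) peaks. The start had a fold enrichment of 27.6 at DN, 16.4 at SP4 and 26.1 at SP8, while the DP peak, at 4.44, ended 20 bp upstream. A region 16.70 kb downstream, past the gene (chr6:129608221-129608738), had 24.7 (DN), 7.49 (DP), 13.1 (SP4) and 20.8 (SP8). Both regions had the order DN, SP8, SP4, DP from high to low. The region 16.15 kb upstream (shown above) had 8.65 at DN, 6.16 at SP4 and 16.2 at SP8, with a separate low DP peak of 3.74 beside it. A region 35.87 kb downstream was SP8-only (7.42). *Klre1* and *Klrk1*, both natural killer receptor genes, overlapped the window and share its regions.

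Among the regions called at all stages, neither SP stage was the higher one throughout. Over the 55 regions called at all stages, the percentile was higher at SP8 than at SP4 in 28 and lower in 27. The median percentile of all member peaks was 49.1 (DN), 59.0 (DP), 60.4 (SP4) and 58.8 (SP8).

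By position, 10 regions lay over starts of the members. Inside the member genes there were 6 regions over exons and 20 in introns. A further 33 lay inside other coding genes and 76 between genes. Starts of other coding genes made up 9 regions. Without these 9, the SP8 share was 66.9% and the DP share 41.4%, with 23 regions called at SP8 and not SP4 and 9 called at SP4 and not SP8. Beside the members, 3 peaks crossed the edge of a window and were not counted. One of them, at SP8 (24.5), belongs to the region at the *Emc6* and *Tax1bp3* start, and regions take their stages from all their peaks, so that region counts as called at SP8. The peak nearest to an edge from inside lay 27 bp from it, at *Itgae* at SP4 (25.1), and the nearest from outside 24 bp from it, at *Ccl5* at DN (7.10).

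Other genes of the cytotoxic program were read in the same way. *Klrk1* among them overlaps the window of the member *Klrd1*, so the list is not wholly separate from the members. Of 26 other cytotoxic genes (granzymes, granule proteins, chemokines, receptors and factors), 14 had more regions at SP8 than at SP4, 5 had equal numbers and 7 had fewer, with a median difference of 1, where 23.2% of all coding genes had more, 36.0% equal numbers and 40.8% fewer. More regions at SP8 were not particular to cytotoxic genes. Of the 6 T lineage markers, 4 had more at SP8, 1 an equal number and 1 fewer, with a median difference of 3.5. *Bcl11b*, a factor of T lineage commitment, had 61 regions at SP8 and 51 at SP4, and the surface proteins *Thy1* and *Cd2* each had 20 and 16. *Runx3*, the factor that directs CD8 lineage choice, had the largest difference, with 40 regions at SP8 and 26 at SP4. *Itgb7*, the chain that pairs with CD103, had 24 and 21, and *Il2rb*, an interleukin receptor chain, 17 and 14, as far apart as *Slamf7* and *Xcl1*. At the other end stood *Zeb2*, with 21 regions at SP8 and 24 at SP4, and *Il12rb2*, with 14 and 16.

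Of the 18 helper lineage genes, 4 had more regions at SP8, 5 equal numbers and 9 fewer, with a median difference of -0.5, near the split over all coding genes. The largest deficits at SP8 were at *Zbtb7b*, with 11 regions at SP8 and 21 at SP4, and at *Il21*, the gene of a helper cytokine, with 7 and 13. *Bcl6* and *Gata3*, both lineage factors, followed with 5 fewer each. *Tnfrsf4* and *Tnfrsf18*, neighbouring genes that share regions, had 2 more regions at SP8, 13 and 11 at the former and 12 and 10 at the latter. The start of *Zbtb7b* was called at SP4 alone. No test was made between the lists.

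The labels were checked against markers. Starts of the 5 DN and 5 SP8 markers were called at every stage, and of the 6 T lineage markers 4 or 5 were, so these starts did not tell the stages apart. Of 4 SP4 markers all but *Zbtb7b* were called at each stage. Several members are also natural killer cell genes, so other markers of those cells were read beside them. Of 6 such genes (*Ncr1*, *Klrb1c*, *Klre1*, *Klra8*, *Tyrobp* and *Fcer1g*) the start was called at 0 at DP, SP4 and SP8 and at 1 at DN, *Fcer1g* (12.4). At DN, the start of *Pax5*, the B cell factor, had a peak of 16.6 and that of *Lyz2*, a myeloid gene, one of 15.2, and neither was called at a later stage. Myeloid markers had 3 of 5 starts called at DN and 2 at each later stage, and erythroid markers 1 of 4 at every stage. The part of such cells in the DN peaks at the 10 genes was not tested.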

How the data were processed

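ATAC-seq maps of open chromatin were made for 4 sorted thymocyte stages of the same 4 mice, 16 libraries in all. After alignment to mm10 with BWA and removal of duplicates, the authors reduced reads to the median depth of all libraries. They then combined the mice of a stage, and the combined depth still differed between stages. Peaks of the combined reads came from MACS2 (5% FDR), with reads shifted and extended to centre on the transposase cut sites. The read depth behind the lists is not used here. The deposited fold enrichment at the summit is a ratio over the local background, and percentiles rank it within its own list. Its median over all peaks was 5.56 (DN), 5.45 (DP), 5.93 (SP4) and 6.11 (SP8). The lists thus differ in scale, and small differences in fold enrichment between stages can turn around by percentile. MACS2 significance was deposited by the authors as a −log10 q-value, beside the summit position.

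Peaks were merged where they shared at least 1 bp, with pandas 2.3.3 and numpy 2.4.6 in Python 3.11.15. Genes were the 20807 autosomal protein-coding genes of GENCODE M21. The lists hold no peak on the sex chromosomes. Distances run from the start to the middle of a region. Shares carry 95% Wilson intervals from scipy 1.17.1, for counting error only. Merging and counting were tested on simulated lists.

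All 10 members are named. Regions named lie over starts or at known elements, are the highest of a gene at a stage, or are called at a single stage or at 1 SP stage and not the other with a percentile of at least 50. Other regions named were chosen after their values were seen. Of the other cytotoxic and the helper genes, the largest and smallest differences are named. The members and lists were chosen with earlier results of these data known. Alternatives were window size, nearest start, q-value, equal numbers of peaks, matching by summit and starts with 200 bp upstream. Some marker genes and the counts that need them are not reported here.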

Additional observations from a re-analysis of the deposited data

How the results depend on the processing

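Each stage was 1 pooled list, so no value has a spread between mice, and leaving out each mouse could not be run. No paired analysis was possible because the mice of each stage were pooled before peak calling. Of 122 alternatives, 104 were labelled as unchanged by a loose rule, 17 as moved and 1 as reversed. Under it a count had to stay within 1.5-fold, and a share within the Wilson interval of the reported share. A log2 ratio of strings had only to keep its sign. Values labelled as unchanged could therefore differ in size. Starts called at DP, for instance, went from 4 to 6 with 200 bp upstream. Settings that leave out *Itgae* or the starts of other genes were chosen after seeing the data. With windows of 10 kb the member peaks numbered 66 (DN), 35 (DP), 52 (SP4) and 63 (SP8), in 77 regions, and with 50 kb there were 120 at DP. Kept by nearest coding start, they numbered 81, 41, 66 and 74, in 92 regions, and the SP8-only share was 4.35%, against 4.21% of all regions. With equal numbers of peaks in every list the SP8 share was 77.9%, against 63.1% of all regions. With summits matched within 100 bp, the share called at all stages was 25.5%, that at SP8 60.6% and that at SP4 and not SP8 11.7%, against 25.0%, 47.9% and 17.1% of all regions. With 200 bp upstream, 7 starts were called at SP4. The ETS log2 ratio of member to all regions turned from -0.06 in summit windows to 0.15 per kb of whole regions. Others kept their sign but changed in size. TCF/LEF went from -0.56 to -0.05, GATA from -0.37 to -0.01, AP-1 from 1.01 to 0.58 and STAT from 0.58 to 0.26. E-box went from -0.02 to -0.29, T-box from 0.03 to 0.17 and RUNX from 0.37 to 0.34. The cause was not tested for any of these. The lists set the limit here, since a peak under the threshold is not seen.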
